A study of Mus musculus with 9 samples.

Results

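Genes of the neuronal microtubule and growth cone apparatus, 10 in all, were followed across neurons, neural stem cells (NSCs) and YAP-induced neural stem cells (yNSCs). They are Mapt, Map2 and Map1b, which encode structural microtubule-associated proteins, Dcx and Dclk1 of the doublecortin family, the stathmin genes Stmn1, Stmn2, Stmn3 and Stmn4, and Gap43, a growth cone gene. The genes were chosen by their role, with earlier results of these data known. Every probe set that the array annotation gives 1 of these 10 symbols was taken. All 10 were measured, as 10 of 18193 genes and as 32 of the 34945 probe sets with 1 symbol. Each gene is given by its brightest probe set, that of highest mean value over all 9 arrays, unless another is named.

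RNA came from 9 mouse cultures, 3 per group, each on an Affymetrix Mouse430_2 array, on which a probe set is a group of short oligonucleotides that together read 1 transcript. Neurons were murine cortical neurons kept in Neurobasal with B27, glutamine, antibiotics and AraC, an agent that removes dividing cells. NSCs were native neural stem cells, grown in DMEM/F12 with N2 and heparin, with murine EGF and bFGF as growth factors, and with glutamine and antibiotics. yNSCs were grown in the same medium and derived from cortical neurons in which YAP, the transcriptional co-activator restrained by the Hippo pathway, had been switched on. According to the study's methods the cells of origin came from late embryos or newborn pups, YAP was carried by a doxycycline-inducible lentivirus together with the rtTA transactivator, and the spheres were later kept without doxycycline. The labels give no passage, sex or strain, and neither the neurons nor the native NSCs are described as carrying the vectors, so the YAP treatment, the vectors and, against neurons, the medium cannot be told apart. Each culture is labelled a biological replicate, and p-values measure the spread between these cultures.

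Microtubules of neurons are stabilised and spaced by tau (Mapt) in axons, by MAP2 in dendrites and by MAP1B in growing neurites. Doublecortin and its relative Dclk1 bind microtubules in migrating and extending neurons, and loss of doublecortin disturbs cortical layering. Stathmins act the other way: they bind free tubulin and favour disassembly, Stmn1 in many dividing and developing cells and Stmn2, Stmn3 and Stmn4 mainly in neurons. GAP43 is a membrane-bound protein of the growing axon tip.

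The labels were checked against marker genes. The neuron markers (Tubb3, Rbfox3, Syn1, Snap25, Nefl, Nefm and Syt1) averaged 10.37 to 10.48 log2 over the neuron arrays, 5.60 to 5.80 over the NSC arrays and 5.76 to 5.85 over the yNSC arrays, and 6 of the 7 were lower in both stem cell groups, the exception being Nefm. Dividing cell markers ran the other way, at 5.25 to 5.55 in neurons, 9.78 to 10.11 in NSCs and 8.93 to 9.14 in yNSCs. Microglia markers averaged 7.16 to 7.86 in the neuron cultures against 3.52 to 3.57 in NSCs and 4.31 to 4.33 in yNSCs. Neural stem cell markers averaged 8.99 to 9.07 in neurons, 9.97 to 10.24 in NSCs and 9.92 to 9.96 in yNSCs. Of these 8, Prom1 and Slc1a3 were higher in yNSCs than NSCs, by 1.70 and 1.15. Hes5, a Notch effector, was lower by 3.88 and Fabp7 by 0.31, and 4 were not called. Astrocyte markers averaged 9.42 to 9.59 in neurons, 7.46 to 8.08 in NSCs and 9.44 to 9.60 in yNSCs. In yNSCs against NSCs 4 of these 7 were higher, Gfap by 5.42, Aqp4 by 4.83, Slc1a2 by 1.23 and Gja1 by 0.92, and Aldoc was lower by 1.20. NSC array A stood apart, with 162 genes more than 2-fold from the rest of its group, where no other array had over 30. The 3′ over 5′ signal of Actb, a sign of RNA quality, was 0.56 to 0.70 log2 in NSCs, 0.19 to 0.31 in yNSCs and 0.03 to 0.21 in neurons. The part of RNA quality and of other cell types in the results was not tested.

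RefSeq start sites (build GRCm38.p6) were matched by symbol for 5 of the 10 genes, in 7 windows: Map2, Map1b and Stmn3 with 1 start each, Dcx with 2 starts 95 bases apart, and Dclk1 with 2 starts 219364 bases apart. Mapt, Stmn1, Stmn2, Stmn4 and Gap43 had no entry. The sequences shown are those upstream of the 2 Dclk1 starts, because the probe sets of this gene moved in opposite directions, and of Map1b, which together with Dcx held a TATA sequence. Capitals mark the motifs CANNTG, the E-box bound by many neurogenic factors, and TATAAA. The distal Dclk1 sequence lies at chr3:55242114-55242302 on the plus strand, just before the annotated gene. It is cut there to 189 bases and stops short of the start site at base 55242364. Motifs were searched in the full 250 bases. The internal one lies at chr3:55461478-55461727 on the plus strand, inside the gene, which spans bases 55242303 to 55539068. The Map1b sequence lies at chr13:99516603-99516852 on the minus strand and ends just before the start site.
Dclk1, distal start: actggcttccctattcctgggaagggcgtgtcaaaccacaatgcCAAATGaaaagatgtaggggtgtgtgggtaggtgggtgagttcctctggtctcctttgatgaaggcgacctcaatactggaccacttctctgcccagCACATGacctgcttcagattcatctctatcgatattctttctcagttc
Dclk1, internal start: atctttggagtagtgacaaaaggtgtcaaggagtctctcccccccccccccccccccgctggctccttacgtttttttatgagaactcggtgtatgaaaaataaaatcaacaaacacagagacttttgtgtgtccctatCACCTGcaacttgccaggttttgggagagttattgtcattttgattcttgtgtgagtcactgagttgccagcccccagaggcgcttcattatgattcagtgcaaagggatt
Map1b: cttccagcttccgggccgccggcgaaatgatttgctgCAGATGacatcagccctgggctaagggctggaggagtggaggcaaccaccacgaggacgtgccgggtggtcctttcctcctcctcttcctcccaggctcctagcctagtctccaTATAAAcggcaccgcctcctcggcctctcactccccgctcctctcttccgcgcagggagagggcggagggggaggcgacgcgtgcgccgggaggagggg
Among the 250 bases before each start, searched on both strands, CANNTG was present at both Dclk1 starts (2 matches at the distal and 1 at the internal start), at Map1b and at Stmn3, and 66.2% of all 32851 RefSeq windows held it. TATAAA was present at Map1b, 99 to 94 bases before the start, against 12.4% of all windows. The 2 Dcx windows overlap and share 1 TATAAA, whose first base lies 193 bases before the one start and 98 before the other. Stmn3 also held GGAATG, the motif of the TEAD factors that partner YAP (12.6% of windows). Map2 held GGACAG, a part of the REST element, on the minus strand (18.7% of windows). CAGCACC, the other part of the element bound by the repressor REST, was found in none of the 7 windows and in 5.73% of all windows. The Map2 window had a GC content of 81.2% and those of Dcx 41.6 and 44.8%, against a median of 52.4% over all windows. These matches are descriptions of the letters and not of binding.

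Expression of 9 of the 10 genes fell in yNSCs against neurons, by 2.41 (Map2) to 7.02 (Dcx) on the log2 scale. By its brightest probe set Dclk1 rose by 1.40, but its probe sets moved in opposite directions. Their mean was 0.18 higher and not called (limma adjusted p = 0.104). The fit across all 18193 genes called 27.9% of genes lower and 34.6% higher in this comparison (limma, adjusted p under 0.05). As counts these are 5081 lower and 6294 higher, and with each array's median over the named genes subtracted they were 7567 lower and 5391 higher. For all 10 the yNSC arrays lay outside the range of the neuron arrays, as they did for 67.0% of all genes. The median difference of the 10 was -4.86, beside -0.01 over all genes. In native NSCs the same 9 genes were lower than in neurons, where 34.1% of all genes were called lower. Dclk1 was called higher by 0.35 by its brightest probe set, where 33.3% of all genes were called higher. With the mean of its probe sets Dclk1 was 0.45 lower in NSCs. The median of the 10 was -3.40, beside -0.07 over all genes. Here 9 of the 10 had no overlap between the groups, Dclk1 being the exception, as did 69.1% of all genes. Both comparisons use the same neuron arrays. In these bulk samples, fewer cells of a type and less RNA per cell cannot be told apart.

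**Figure D1:**
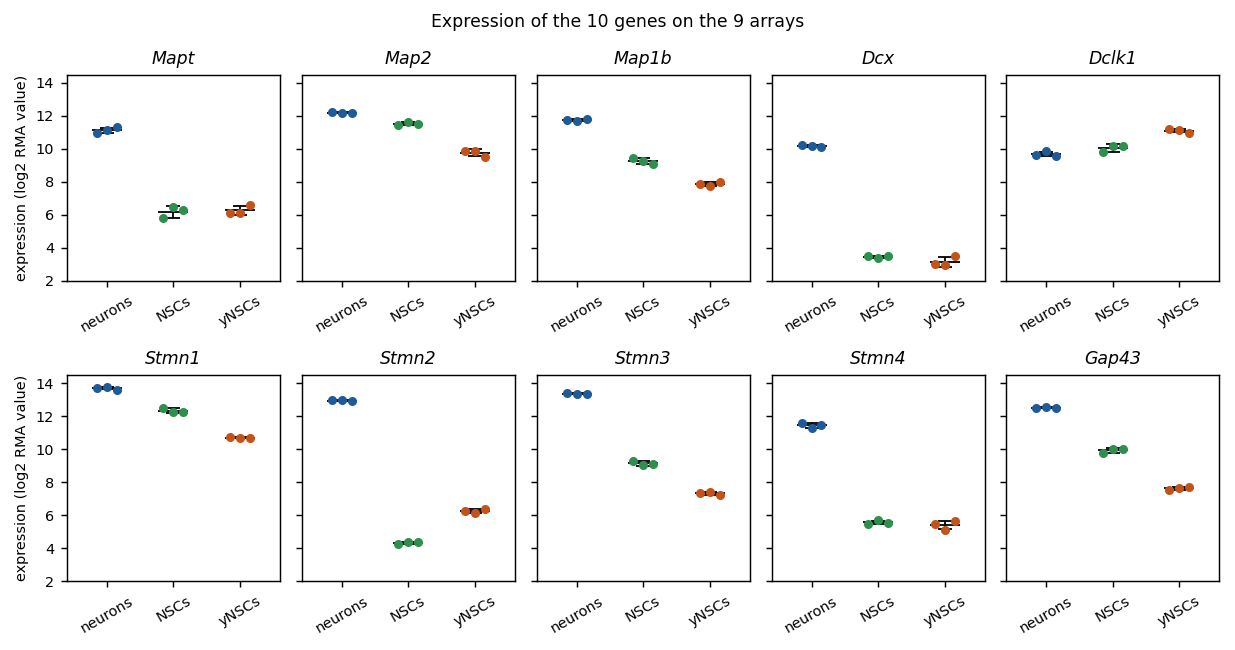
Log2 RMA expression value (vertical axis) of each gene on the 9 arrays, by group. Points are arrays, horizontal bars the group mean and whiskers 1 SD (n = 3). Of the 10, 9 sit highest in neurons. By the brightest probe set, shown here, Dclk1 sits highest in yNSCs. Stmn2 is the one whose yNSC arrays lie between the other groups but above the NSCs.

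Between the stem cell groups the genes parted. Map2, Map1b, Stmn1, Stmn3 and Gap43 were lower in yNSCs than in NSCs, 5 of 10 where 18.0% of all genes were called lower. Dclk1 and Stmn2 were higher, 2 of 10 where 21.3% of all genes were called higher. Mapt, Dcx and Stmn4 were not called and their arrays overlapped, while the other 7 had no overlap, as did 51.6% of all genes. The median difference was -0.85, beside 0.07 over all genes. By order of levels, the 5 genes of the first set ran neurons, NSCs, yNSCs with every step called, Stmn2 ran neurons, yNSCs, NSCs, and Mapt, Dcx and Stmn4 were high in neurons with NSCs and yNSCs not told apart.

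**Figure D2:**
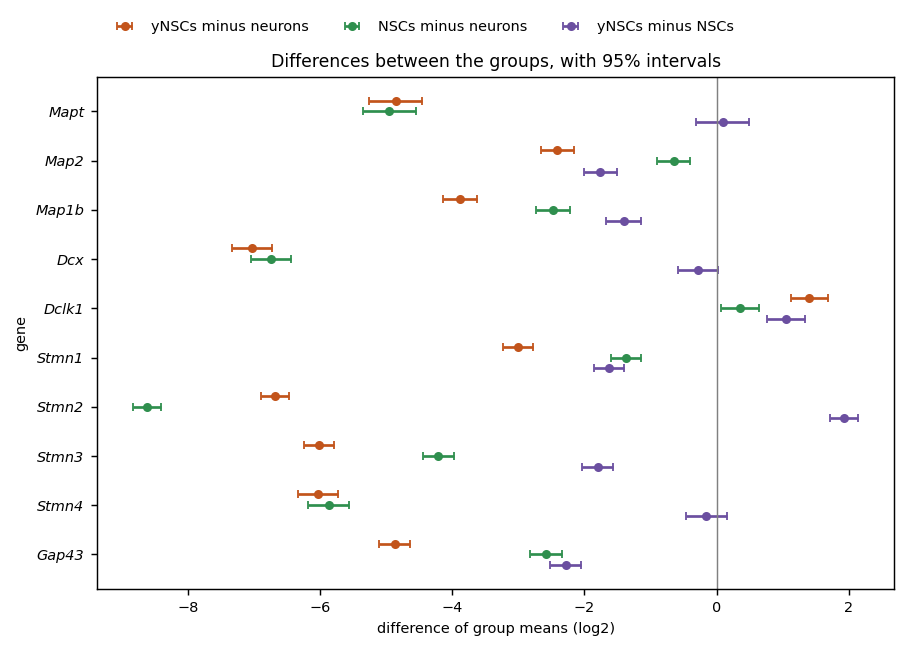
Difference of group means on the log2 scale (horizontal axis) for each gene in the 3 comparisons, with 95% intervals from the fit over all 9 arrays. Intervals left of 0 mean a lower level in the group named first. By its brightest probe set, shown here, Dclk1 lies right of 0 throughout. The yNSCs minus NSCs intervals of Mapt, Dcx and Stmn4 include 0.

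Mapt, the tau gene, measured 10.98, 11.11 and 11.30 in neuron arrays A, B and C, 5.78, 6.48 and 6.28 in the NSC arrays, and 6.10, 6.14 and 6.58 in the yNSC arrays. Every neuron array stood above every stem cell array, and the NSC and yNSC arrays overlapped. Mapt was lower by 4.86 in yNSCs (29.0-fold, SE 0.18, limma adjusted p = 3.71e-10) and by 4.95 in NSCs (30.9-fold). The interval of the difference between yNSCs and NSCs ran from -0.31 to 0.49 (95%), so with 3 arrays per group a difference of either sign within that range remains possible. The other 3 Mapt probe sets fell by 3.94 to 5.05 in yNSCs and by 4.74 to 5.39 in NSCs. One of them, 1417885_at, was higher in yNSCs than NSCs by 0.80 (limma adjusted p = 0.00021 in the fit across probe sets), with means of 4.84 and 4.04.

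Map2, whose protein stabilises dendritic microtubules, changed least among the genes that fell. It measured 12.21, 12.15 and 12.16 in neurons, 11.43, 11.61 and 11.53 in NSCs, and 9.89, 9.87 and 9.53 in yNSCs. The 3 groups did not overlap, and native NSCs stayed close to neurons. The difference was -0.65 in NSCs (1.57-fold, 95% interval -0.90 to -0.40) and -2.41 in yNSCs (5.32-fold, adjusted p = 2.97e-09), and yNSCs were lower than NSCs by 1.76 (3.39-fold, adjusted p = 1.96e-07; all limma).

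The 4 Map2 probe sets did not move alike. All fell in yNSCs against neurons, by 1.15 to 2.41. Probe set 1440699_at rose in NSCs against neurons, from 6.29 ± 0.10 to 8.20 ± 0.14 (mean ± SD, n = 3 arrays), and its difference of 1.90 parted from that of the highest probe set by 2.55 (limma adjusted p = 6.69e-08 over all pairs of probe sets). It also fell furthest from NSCs to yNSCs, by 3.06. Probe sets 1421328_at and 1421327_at fell in NSCs by 1.16 and 1.32, and their yNSC and NSC arrays overlapped, with differences of -0.54 and -0.44 that were not called. NSC array A was the low one for both, at 7.01 and 5.48 beside 7.84 to 8.01 and 6.50 to 6.74 on the other NSC arrays. With the mean of the 4 probe sets the fall of Map2 in NSCs was -0.31 and not called (limma adjusted p = 0.0532).

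Map1b, which encodes the microtubule protein of growing neurites, measured 11.74, 11.71 and 11.81 in neurons, 9.46, 9.29 and 9.07 in NSCs, and 7.84, 7.76 and 7.99 in yNSCs. The groups were separate and stepped down from neurons to NSCs to yNSCs. Map1b was lower by 3.89 in yNSCs (14.8-fold, SE 0.12, limma adjusted p = 5.73e-11), by 2.48 in NSCs (5.58-fold), and by 1.41 in yNSCs against NSCs (2.66-fold, limma adjusted p = 1.57e-06). Probe set 1421851_at gave -3.79, -2.35 and -1.44 in these comparisons. The third, 1421850_at, also fell against neurons in both groups, but its difference between yNSCs and NSCs was 0.43 and not called, and parted from that of the highest probe set by 1.84 (adjusted p = 8.05e-05).

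Dcx, the doublecortin gene, fell furthest in yNSCs. It measured 10.25, 10.19 and 10.12 in neurons, 3.48, 3.37 and 3.48 in NSCs, and 3.03, 2.95 and 3.51 in yNSCs. The stem cell arrays lay near the bottom of the scale: the yNSC mean was under the lower quartile of its own arrays, which is called near background here. Dcx was lower by 7.02 in yNSCs (130-fold, SE 0.14, limma adjusted p = 2.48e-12) and by 6.74 in NSCs (107-fold), values that the floor of the array can make too small. The yNSC and NSC arrays overlapped (-0.28, 95% interval -0.58 to 0.02, limma adjusted p = 0.137). Without yNSC array C, the highest of its group, the difference was -0.45 (limma adjusted p = 0.00829). Probe set 1418141_at went the other way, 0.27 higher in yNSCs than NSCs and not called, with both means near background. Its difference parted from that of the highest probe set by 0.55 (limma adjusted p = 0.0463 over all pairs of probe sets).

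All 4 Dcx probe sets fell in both groups. Probe set 1418141_at fell by 6.19 in yNSCs, while 1448974_at and 1418140_at, at 6.08 and 4.69 in neurons and near background in both stem cell groups, fell by 2.80 and 1.86.

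Dclk1, whose protein joins doublecortin domains to a kinase, was the 1 gene called higher outside neurons. This holds for 1436659_at, its highest probe set over the 9 arrays, while in neurons 1435940_at was brighter (11.38 against 9.69). Probe set 1436659_at measured 9.64, 9.85 and 9.58 in neurons, 9.78, 10.18 and 10.17 in NSCs, and 11.18, 11.12 and 10.98 in yNSCs. The yNSC arrays stood above all others, while NSC array A lay below neuron array B. The rise was 1.40 in yNSCs against neurons (2.65-fold, 95% interval 1.12 to 1.69, limma adjusted p = 1.21e-06) and 1.05 against NSCs (2.07-fold, adjusted p = 4.33e-05). Of the 7 astrocyte markers, Gfap, Aqp4, Slc1a2 and Gja1 were also higher in yNSCs than NSCs, Aldoc was lower, and Aldh1l1 and S100b were not called. Against neurons the astrocyte marker average was alike, at 9.42 to 9.59 in neurons and 9.44 to 9.60 in yNSCs. The part of astrocyte markers in the Dclk1 differences was not tested. The NSC difference of 0.35 (1.28-fold, adjusted p = 0.0307) was not called without neuron array A or C or NSC array B or C, with values of 0.29 to 0.33, nor with only the 6 arrays of the comparison (adjusted p = 0.0564).

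The 9 Dclk1 probe sets fell into opposite directions. In yNSCs against neurons 5 rose, 3 fell and 1 was not called. The 4 that rose together, 1436659_at, 1424271_at, 1451289_at and 1424270_at, gained 1.33 to 1.54 in yNSCs and 0.35 to 0.81 in NSCs, and the differences of the other 3 did not part from that of 1436659_at in yNSCs (-0.13 to 0.07, none called).

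Probe set 1435940_at went the other way. It measured 11.40, 11.36 and 11.39 in neurons, 9.23, 9.44 and 9.46 in NSCs, and 9.09, 9.07 and 9.08 in yNSCs. All stem cell arrays lay below the neuron arrays, and the fall was 2.30 in yNSCs and 2.01 in NSCs. Its difference in yNSCs parted from that of 1436659_at by 3.71 (SE 0.14, limma adjusted p = 1.02e-09). Probe set 1423125_at fell by 1.57 in yNSCs and 2.12 in NSCs, and 1450863_a_at by 0.67 and 1.50. Both were higher in yNSCs than in NSCs, by 0.55 and 0.83. Probe set 1451917_a_at rose by 0.84 in yNSCs and fell by 0.72 in NSCs, and 1446190_at was called in neither (-0.33 and 0.21). As background, the distal start of Dclk1 yields transcripts with the doublecortin domains and the internal start yields transcripts of the kinase part. Which transcripts each probe set reads was not known here, so the probe sets were not assigned to the starts printed above. With the mean of all 9 probe sets Dclk1 was 0.18 higher in yNSCs (not called, adjusted p = 0.104) and 0.45 lower in NSCs (adjusted p = 0.00079).

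**Figure D3:**
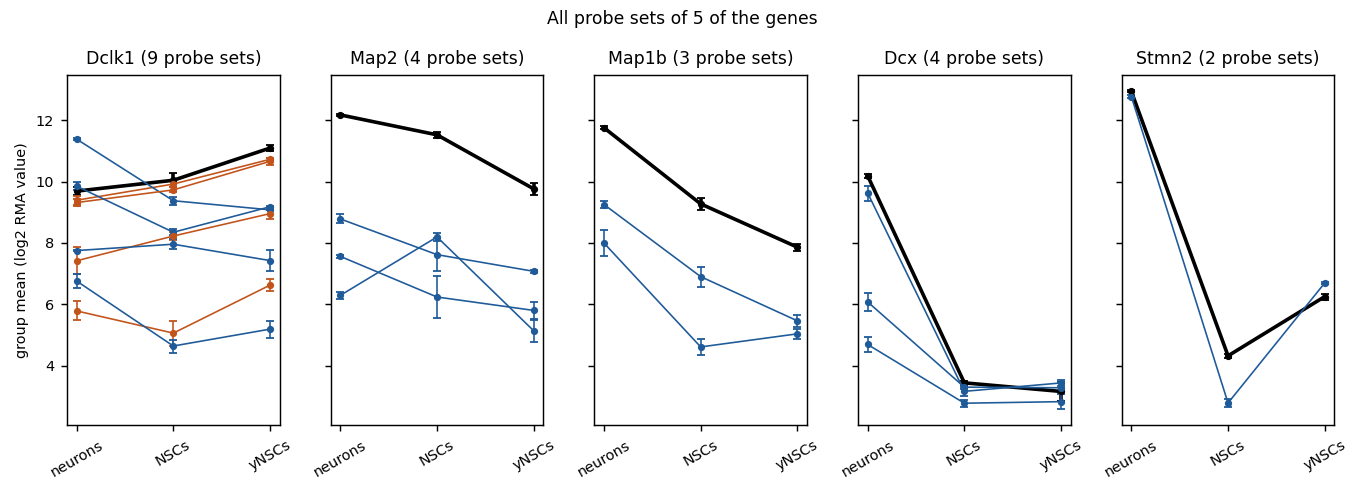
Group means (log2 RMA value, vertical axis) of every probe set of 5 genes in neurons, NSCs and yNSCs, with whiskers of 1 SD (n = 3 arrays). The thick black line is the probe set with the highest mean, orange lines are other probe sets with a higher mean in yNSCs than in neurons and blue lines those with a lower one. Dclk1 has lines in both directions, 1 Map2 line peaks in NSCs, and the Stmn2 lines dip in NSCs.

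Over all 32 probe sets, 26 were lower and 5 higher in yNSCs against neurons (26.1% lower and 33.2% higher over all probe sets with 1 symbol). The counts were also 26 lower and 5 higher in NSCs against neurons (31.7% and 32.9%), the 5 being 4 of Dclk1 and 1 of Map2. In yNSCs against NSCs 11 were lower and 10 higher (18.5% and 21.4%). Of the 22 pairs made of the highest probe set and another of the same gene, 14 differed in their yNSC against neuron difference (53.2% of all 16752 pairs on the array), 12 in NSCs against neurons (60.9%) and 9 in yNSCs against NSCs (38.4%). Opposite calls within such a pair numbered 3, 5 and 2, beside 5.16, 7.43 and 2.82% of all pairs. Probe sets of one gene share its RNA and are not replicates of it.

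Among the stathmins, Stmn1, the member also made by dividing cells, measured 13.73, 13.75 and 13.61 in neurons, 12.49, 12.22 and 12.25 in NSCs, and 10.73, 10.65 and 10.69 in yNSCs. The 3 groups were well apart, with yNSCs lowest. It was lower by 3.01 in yNSCs (8.04-fold, SE 0.10, limma adjusted p = 1.84e-10), by 1.38 in NSCs (2.60-fold) and by 1.63 in yNSCs against NSCs (3.10-fold, limma adjusted p = 1.63e-07). The second probe set gave -3.33, -1.53 and -1.80. The dividing cell markers were also lower in yNSCs than NSCs for 5 of 6 genes, Cdk1 not called. Their part in the Stmn1 difference was not tested.

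Stmn2, the SCG10 gene of neuronal growth cones, had the largest fall of the 10 in native NSCs. It measured 12.95, 12.96 and 12.90 in neurons, 4.26, 4.35 and 4.36 in NSCs, and 6.24, 6.16 and 6.36 in yNSCs. Every yNSC array lay between the NSC and the neuron arrays, much closer to the NSCs. The difference was -8.61 in NSCs (392-fold, SE 0.10, limma adjusted p = 1.07e-13) and -6.68 in yNSCs (103-fold). In yNSCs Stmn2 was higher than in NSCs by 1.93 (3.81-fold, 95% interval 1.72 to 2.14, adjusted p = 1.88e-08).

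The second Stmn2 probe set measured 12.73, 12.75 and 12.83 in neurons, 2.87, 2.84 and 2.65 in NSCs, and 6.71, 6.73 and 6.65 in yNSCs. Its NSC mean was near background, so its measured rise of 3.91 from NSCs to yNSCs can be too small. That rise parted from that of the first probe set by 1.98 (limma adjusted p = 1.37e-06 over all pairs of probe sets). The part of the array floor in this gap was not tested. Tubb3, Snap25 and Nefl of the neuron markers were likewise higher in yNSCs than NSCs, by 1.28, 2.12 and 2.03, while Rbfox3 and Syt1 were lower by 1.92 and 2.75, and Syn1 and Nefm were not called.

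Stmn3, a Golgi-bound stathmin of neurons, measured 13.40, 13.34 and 13.32 in neurons, 9.31, 9.01 and 9.10 in NSCs, and 7.33, 7.43 and 7.25 in yNSCs. The order was the reverse of that of Stmn2 in the stem cells, with yNSCs below NSCs on every array. Stmn3 was lower by 6.02 in yNSCs (64.7-fold, SE 0.11, limma adjusted p = 1.65e-12), by 4.21 in NSCs (18.6-fold) and by 1.80 in yNSCs against NSCs (3.49-fold). Its second probe set gave -6.47, -4.46 and -2.02.

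Stmn4, also a neuronal stathmin, measured 11.59, 11.26 and 11.47 in neurons, 5.49, 5.68 and 5.54 in NSCs, and 5.48, 5.13 and 5.63 in yNSCs. The stem cell arrays overlapped with each other and lay far below the neurons. The fall was 6.03 in yNSCs (65.2-fold, SE 0.14, limma adjusted p = 7.42e-12) and 5.87 in NSCs (58.5-fold). Between yNSCs and NSCs the 95% interval was -0.46 to 0.15 (adjusted p = 0.423). Only 1 probe set measured it.

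Gap43, the growth cone gene, measured 12.48, 12.55 and 12.50 in neurons, 9.74, 10.02 and 10.02 in NSCs, and 7.54, 7.66 and 7.72 in yNSCs. The groups did not overlap, and of the 10 genes it differed most in the downward direction between yNSCs and NSCs. Gap43 was lower by 4.87 in yNSCs (29.2-fold, SE 0.11, limma adjusted p = 5.9e-12), by 2.58 in NSCs (5.99-fold) and by 2.29 in yNSCs against NSCs (4.88-fold, adjusted p = 1.29e-08). Markers of oligodendrocyte precursors, cells that are also known to make Gap43 and Map1b, averaged 8.92 to 8.99 in NSCs and 7.63 to 7.74 in yNSCs, with Pdgfra lower in yNSCs by 3.12, Cspg4 by 2.20 and Olig2 by 0.73, and Olig1 and Sox10 not called. Their part in the Gap43 and Map1b differences was not tested.

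Lists of related genes were read beside the 10, by counts and medians. Over all genes, 27.9% were called lower and 34.6% higher in yNSCs against neurons, and 34.1% and 33.3% in NSCs against neurons. In yNSCs against NSCs the shares were 18.0% and 21.3%. The medians over all genes were -0.01, -0.07 and 0.07 in these comparisons. List counts near these shares, in this and the next paragraphs, are not read as a trait of the list. Among 14 other microtubule-associated proteins, 10 were lower and 1 higher in yNSCs against neurons, and 9 lower and 2 higher in NSCs, with medians of -0.79 and -1.77. Tppp, a tubulin polymerisation-promoting protein, fell by 5.55 in yNSCs and 3.74 in NSCs, and Map7d2 fell by 3.47 in yNSCs. Dclk3, a relative of Dclk1, fell by 2.92 and 3.12. Dclk2, the closest relative, rose by 0.65 in NSCs (limma adjusted p = 0.00045), was lower by 0.80 in yNSCs than NSCs, and differed by -0.15 in yNSCs against neurons, which was not called (adjusted p = 0.291). Between yNSCs and NSCs 4 were lower and 4 higher, Tppp lower by 1.81 and Tppp3 higher by 1.21.

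Of 20 other growth cone genes, 17 were lower and 1 higher in yNSCs against neurons (median -2.11), and 16 lower and 3 higher in NSCs (median -1.66). L1cam, an axonal adhesion molecule, fell by 5.87 and 6.37. Crmp1, a collapsin response mediator, fell by 5.52 in yNSCs, and Basp1, a protein kinase C substrate related in function to GAP43, fell by 4.10. Both were also lower in yNSCs than NSCs, by 2.42 and 2.07, as was Ncam1 by 1.89, and 11 of the 20 were lower and 7 higher in that comparison. Nrcam (0.12) and the actin-bundling Fscn1 (0.07) were not called in yNSCs against neurons.

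Kinases that act on these proteins were mostly lower outside neurons. Of 19, 18 were lower and 1 higher in yNSCs against neurons (median -1.26), and 16 were lower in NSCs with the other 3 not called. Cdk5r1 and Cdk5r2, the p35 and p39 activators of Cdk5, a tau and doublecortin kinase, fell by 3.89 and 3.82 in yNSCs and by 3.07 and 3.93 in NSCs. Brsk2, a polarity kinase, fell by 4.26 in yNSCs. Between yNSCs and NSCs 10 were lower and 5 higher, among them Camk2b, Prkcb and Brsk2, lower by 1.95, 1.88 and 1.41.

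Of 21 end-binding and severing genes, 15 were lower and 4 higher in yNSCs against neurons, and 12 lower and 5 higher in NSCs. Camsap3, which caps microtubule minus ends, fell by 3.76 and 3.85, and Mapre2, an end-binding protein, by 3.57 and 2.56. Fign, the severing enzyme fidgetin, rose by 2.45 in NSCs against neurons and was lower in yNSCs than NSCs by 2.10. In yNSCs against NSCs 11 of the 21 were lower and the other 10 were not called.

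Spindle-associated proteins, the microtubule binders of dividing cells, ran opposite to the neuronal set. Of 14, 11 were higher and 2 lower in yNSCs against neurons (median 2.91), and 11 were higher in NSCs with 3 not called (median 4.22). Nusap1, Prc1 and Tpx2, which bundle and nucleate spindle microtubules, rose by 4.31, 4.21 and 3.88 in yNSCs. In yNSCs against NSCs 11 of the 14 were lower and 3 not called (median -1.06), with Tacc3 lower by 1.58 and Aspm by 1.50.

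Among 10 migration and lissencephaly genes, 7 were lower and 2 higher in yNSCs against neurons and 6 lower and 3 higher in NSCs. Reln, the reelin gene of Cajal-Retzius cells and interneurons, fell by 6.40 and 6.79. Dab1, its intracellular adaptor, fell by 3.51 in yNSCs and was lower there than in NSCs by 2.42. Nde1, a dynein regulator needed in dividing progenitors, rose by 1.53 and 2.33.

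Regulators of neuronal transcripts split: of 9, 4 were lower and 4 higher in yNSCs against neurons, and 4 lower and 5 higher in NSCs. Elavl2, Elavl3 and Elavl4, the neuronal Hu proteins that bind transcripts such as that of Gap43, fell by 5.17, 3.90 and 3.79 in yNSCs. Elavl2 and Elavl4 were also lower in yNSCs than NSCs, by 2.06 and 2.81. Ptbp1, a repressor of neuronal splicing, rose by 2.90 in NSCs and by 2.96 in yNSCs. Its difference between yNSCs and NSCs was 0.06 and not called.

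**Figure D4:**
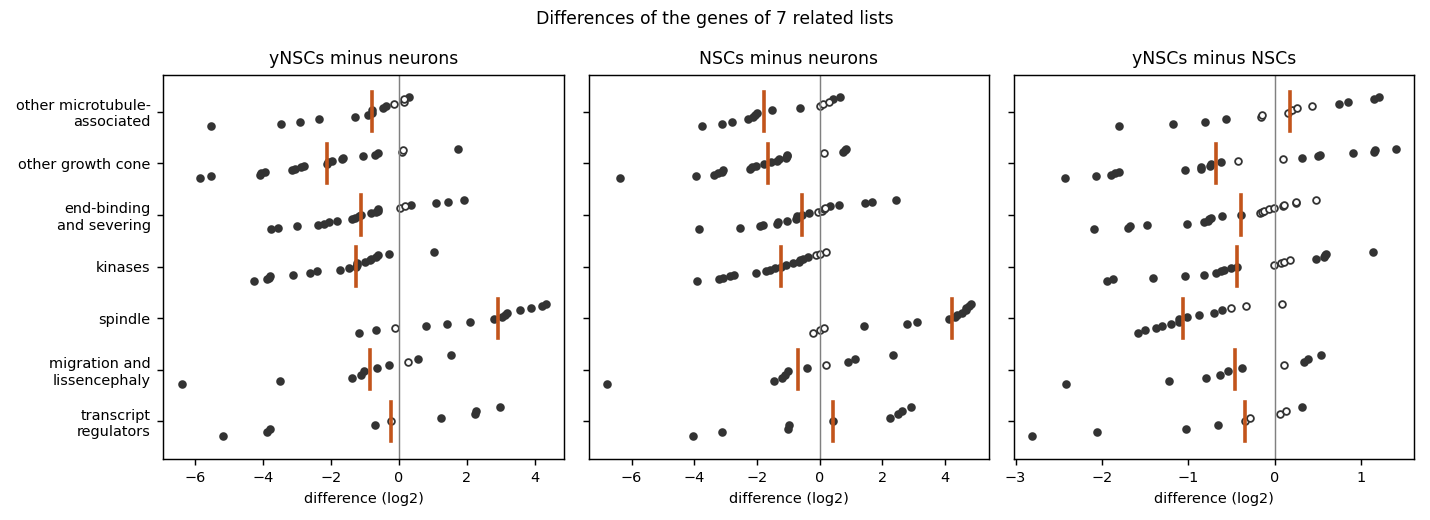
Difference on the log2 scale (horizontal axis) of each gene of 7 related lists in the 3 comparisons. Filled points passed the test (limma adjusted p under 0.05), open points did not, and orange bars are list medians. Most spindle genes lie right of 0 against neurons, with medians of 2.91 and 4.22, and left of 0 in yNSCs minus NSCs. Tacc1, Tacc2 and Ckap5 are the exceptions in yNSCs minus neurons, and Ckap5 also in the other panels.

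Genes with the most similar pattern were sought among all 18193 by the root mean square difference over the 9 arrays after each gene was centred on its own mean. The closest to Stmn3 was Snap91 (0.08 log2), to Dclk1 Slc25a40 (0.08), to Stmn1 Astn1 (0.10), to Map1b Ints6 (0.11) and to Map2 Homer2 (0.11), followed for Map2 by Slc36a4 and the kinase gene Prkcb (both 0.12). Mapt was nearest to Pnck (0.14), Stmn4 to the sodium channel gene Scn2a (0.14), Dcx to Camk4 (0.18), and Gap43 to AI504432 (0.18). Stmn2 had no neighbour as close by this unscaled measure, in which larger changes can give larger distances. The nearest to Stmn2 was Tubb3, the neuronal beta-tubulin gene, at 0.41, then Snap25 at 0.41. Among the 10 genes themselves, Map2 and Stmn1 were 0.35 apart and Dcx and Stmn4 were 0.46 apart.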

How the data were processed

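Total RNA of 9 cultures (3 neurons, 3 NSCs, 3 yNSCs) was hybridised to Affymetrix Mouse430_2 arrays. The deposited values are log2 expression summaries per probe set, which the authors made with RMA (per the submitters' processing notes, version not stated), rounded to 2 decimals. RMA corrects the background and is meant to bring the arrays to one distribution, so differences are relative to the rest of the array and the lowest values are compressed. The deposited values still differed somewhat, with a mean lower quartile of 3.71 in neurons, 3.43 in NSCs and 3.49 in yNSCs. The number of arrays limits the precision. Of 45101 probe sets, 64 controls, 932 with several symbols and 9160 not named here were left out. A linear model with 3 group means was fitted to 18193 genes with limma 3.58.1 in R 4.3.3 (6 residual degrees of freedom, two-sided, Benjamini-Hochberg adjusted p under 0.05, first group minus second), and again to all 34945 probe sets with 1 symbol and to the within-array differences of probe set pairs; the fit was tested on simulated data. A permutation of 3 against 3 arrays cannot go below 0.1. Promoter letters are RefSeq's on GRCm38.p6. The genes, lists and tests were chosen with earlier results of these data known. Named genes are the 10, the called genes of largest difference and some not called of each list, markers, and the 3 genes most alike. The alternatives tried were a block for the replicate letter, a fit to just the 6 arrays of a comparison, a filter of the lowest 40% of genes, quantile normalization again, median subtraction, the mean of all probe sets, a variance trend, a 2-fold minimum and leaving out each array. The fit to single probe sets and subtraction of the named genes' median were added after seeing the data.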

Additional observations from a re-analysis of the deposited data

How the results depend on the processing

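Of 540 values of single gene differences under the alternatives, 524 kept their direction and call, as did 137 of 147 counts over the 10 genes within 1.5 times and 701 of 756 counts over the related lists. The replicate block gave the same 9 lower and 1 higher against neurons in both comparisons and 5 lower and 2 higher between the stem cell groups. No pairing by letter was seen: same-letter deviations correlated from -0.11 to 0.10, and the best match was the own letter in 2 of 18. Deviations of 3 arrays from their own group mean cannot exclude shared preparations. The exceptions among the single gene differences were mainly Dclk1. The number of genes higher in yNSCs than neurons was 0 with the mean of all probe sets. The number higher in NSCs than neurons was 0 with that mean, with only the 6 arrays compared, with quantile normalization again (Dclk1 0.13), with a 2-fold minimum and with the named genes' median subtracted, and ranged from 0 to 1 when each array was left out (0 without neurons A, neurons C, NSCs B or NSCs C). Dclk1 in NSCs against neurons turned to -0.45 with the mean of all probe sets. Dcx in yNSCs against NSCs turned from -0.28 to 0.01 (0.0058) with that mean. Mapt in yNSCs against NSCs, 0.09 and not called, ranged from -0.11 to 0.24 when each array was left out, below 0 without NSCs A (-0.11) or yNSCs C (-0.06). Apart from the probe set mean, which averages features that moved in opposite directions, the cause was not tested. Subtracting the named genes' median moved the median of all genes from -0.01 to -0.19 in yNSCs and from -0.07 to -0.21 in NSCs, where the calls went from 6206 lower and 6051 higher to 7969 and 5456. Without detection calls, changes near the bottom of the scale, as for Dcx, have limited precision.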
